A study of Mus musculus with 8 samples.

Results

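Expression of 10 extracellular matrix genes was followed in R1 mouse embryonic stem cells (ESCs), chosen by symbol as proteins that signal to cells or build the interstitial matrix. They were Sparc, Thbs1, Postn, Ecm1, Fn1, Fbn1, Fbn2, Dcn, Bgn and Lum, and all 10 were among the 24421 genes of each count file. The libraries came from 2 states, each sequenced on 2 Oxford Nanopore Technologies (ONT) platforms with 2 replicates, giving 8 libraries in 4 groups. RNA from the same 2 cultures of a state went to both platforms, so results on the 2 platforms share their cultures and are not independent of each other. Undiff cells were R1 cells in growth medium before differentiation. Day4 cells were embryoid bodies, floating aggregates made by 4 days without the cytokine Lif, that then received retinoic acid (RA) for 4 days. No sample of embryoid bodies without RA was analysed here. RA, aggregation, the loss of Lif and time in culture thus cannot be told apart in the comparison of states. The labels give the RA dose as 2 microM in one place and as 2 mM in another, and name embryoid bodies as the tissue of every library, Undiff included. On the Direct RNA platform the native polyadenylated strand passes through the pore. In cDNA libraries the RNA was copied and amplified by PCR first. No genotype change was described in any group, and R1 is 1 cell line.

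The interstitial matrix is the mesh of fibres and proteoglycans between cells. Fibronectin and the fibrillins assemble into fibres, small leucine-rich proteoglycans bind to collagen fibrils, and matricellular proteins are secreted to change how cells attach and signal rather than to bear load. In the early embryo, Sparc and fibronectin are made by the parietal endoderm, the cells that lay down Reichert's membrane, and the collagen-binding proteoglycans are typical of later connective tissue.

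The reads on genes numbered 283461 to 907489 in Direct RNA and 948657 to 2088592 in cDNA. The labels of the states were checked against 8 pluripotency genes, among them Pou5f1 and Nanog. Their summed level was 10280 to 12290 CPM (reads scaled to 1000000 reads on genes) in Direct RNA Undiff against 102 to 488 CPM at Day4. In cDNA it was 20790 to 23450 CPM against 84.2 to 914 CPM, and all 8 genes were called lower on both platforms. The higher Day4 sum was that of replicate 2 on both platforms. Pou5f1 had 2 and 46 reads in the Day4 replicates of Direct RNA and 2 and 55 in those of cDNA. The part of this difference between Day4 replicates in the levels of the members was not tested. Changes were tested over all genes with DESeq2. A call needed an adjusted p-value no higher than 0.05, at least a 1 log2 unit difference in either direction, and 5 or more normalized counts on average.

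Promoter sequence is printed for 3 members that changed in different ways and have a RefSeq entry. Each line holds the 250 bases before an annotated start in GRCm38.p6, 5′ to 3′ on the gene's own strand, with motif matches in capitals. They are shown because Ecm1 rose from almost no reads, Postn from none, and Sparc from a level that was already high. Ecm1 lies on the minus strand of chromosome 3 and its window is chr3:95739570-95739819. The Sparc window is chr11:55420081-55420330 on the minus strand, inside the gene because another annotated transcript starts further upstream. The window of Postn is chr3:54360857-54361106 on the plus strand, before the second of its 2 RefSeq starts.
Ecm1: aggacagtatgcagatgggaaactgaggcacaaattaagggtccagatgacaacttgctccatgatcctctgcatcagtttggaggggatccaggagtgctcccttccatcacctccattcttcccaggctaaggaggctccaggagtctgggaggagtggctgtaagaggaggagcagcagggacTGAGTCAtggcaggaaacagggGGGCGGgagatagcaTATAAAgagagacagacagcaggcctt
Postn: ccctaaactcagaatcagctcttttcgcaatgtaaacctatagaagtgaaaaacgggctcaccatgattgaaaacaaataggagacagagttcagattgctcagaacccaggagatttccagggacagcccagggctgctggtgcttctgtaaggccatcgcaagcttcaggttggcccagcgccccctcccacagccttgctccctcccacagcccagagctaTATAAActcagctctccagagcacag
Sparc: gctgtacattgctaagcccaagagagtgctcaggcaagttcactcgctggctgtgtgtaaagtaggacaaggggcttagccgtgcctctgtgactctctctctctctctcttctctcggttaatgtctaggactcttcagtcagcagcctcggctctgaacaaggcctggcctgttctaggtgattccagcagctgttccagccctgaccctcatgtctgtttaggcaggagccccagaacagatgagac
The motifs searched on both strands were TATAAA (the TATA box), GGGCGG (the GC box), TGACTCA (an AP-1 element), AGGTCA (the core recognition element of nuclear receptors, RA receptors included), CATTCC (a TEAD element) and CACCTG (an E-box). No match overlaps another in the 3 printed windows. In Ecm1, TATAAA begins 27 bases and GGGCGG 42 bases before the start, and TGACTCA lies on the opposite strand 64 bases before it. The Postn window holds TATAAA 26 bases before the start, and the Sparc window holds none of these. Of all 32851 promoter windows of this length, 12.4% hold a TATA box, 32.7% a GC box, 4.46% the AP-1 element, 14% the nuclear receptor element, 12.6% the TEAD element and 17.2% the E-box. Windows were at hand for 5 of the 10 members. The GC box was also found before Fbn1 and Bgn, and the nuclear receptor element before the first start of Postn. These matches describe the letters of the windows and are not sites of binding.

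Reads on the 10 genes together were more numerous at Day4 on both platforms, and Ecm1 held the largest share of them in every Day4 library. The summed level was 754.8 and 526.7 CPM in the Direct RNA Undiff libraries and 3147 and 2552 CPM at Day4. In cDNA it was 138.1 and 171.9 CPM, then 2558 and 2131 CPM. Every Day4 library was above every Undiff library. Sparc and Fn1 gave nearly all reads in Undiff, where Sparc held 57.8% and 48.5% of them in Direct RNA and 71.8% and 71.6% in cDNA. At Day4, Ecm1 held 47.9% and 63.9% of them in Direct RNA, while in cDNA it held 73.1% and 71.1%. The share of Fn1 was 40.7% and 48.5% in Direct RNA Undiff and 9.75% and 4.46% at Day4, and in cDNA it was 26.7% and 25.6% and then 1.07% and 1.20%. The other 7 genes together never had more than 125 reads in a library. A bulk library cannot tell a change in the number of cells of a type from a change of RNA per cell.

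**Figure D1:**
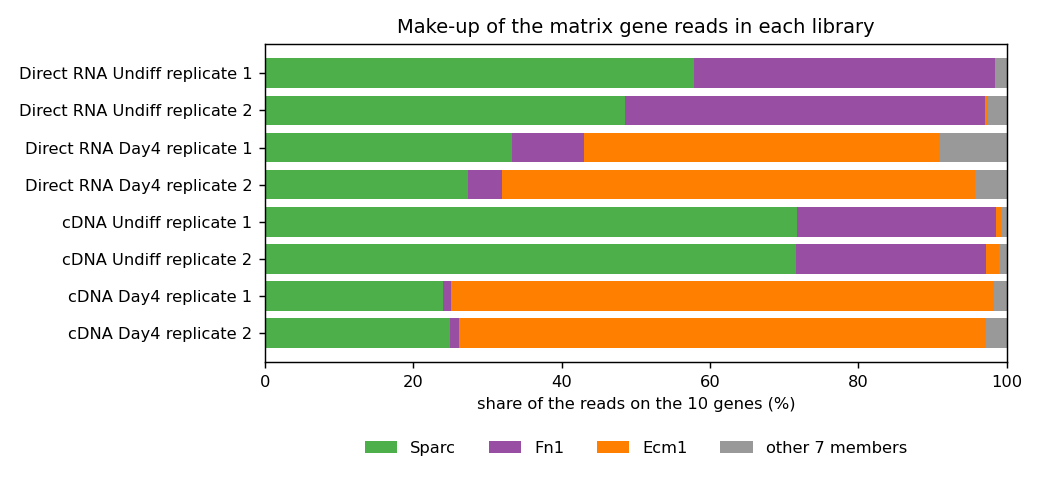
Share of the reads on the 10 matrix genes, in percent, for each of the 8 libraries (bars) and for Sparc, Fn1, Ecm1 and the other 7 genes (colours). Ecm1 fills 47.9% to 73.1% of the bar in the 4 Day4 libraries and at most 1.67% in the 4 Undiff libraries.

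With DESeq2, 4 of the 10 genes were called higher at Day4 in Direct RNA, namely Ecm1, Postn, Fbn2 and Sparc, and none was called lower by either tool. Fn1, the only tested member with a value below 0, had an unadjusted DESeq2 p of 0.205 in Direct RNA and 0.1 in cDNA. Of the 10 genes, 7 had the mean count of 5 that a call needs. Among all 9646 genes with that mean, 9.54% were called higher and 7.67% lower. In cDNA, Ecm1, Fbn2 and Sparc were called higher and none lower, with 6 of the 10 genes at the mean count, beside 8.69% higher and 9.24% lower among all 10271 genes. The quasi-likelihood test of edgeR called 6 higher in Direct RNA, adding Fbn1 and Thbs1, and 5 in cDNA, adding Fbn1 and Bgn. Over all genes edgeR called 18.7% higher and 15.1% lower in Direct RNA and 17.0% and 15.6% in cDNA. A gene at almost no reads in Undiff reaches the mean count only through Day4, so the genes that were tested are not a random sample of the 10.

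**Figure D2:**
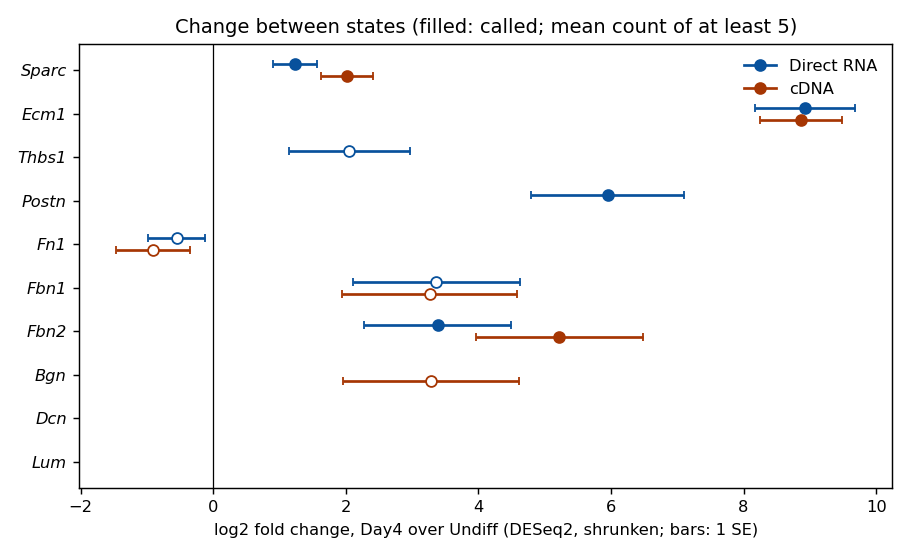
DESeq2 log2 fold change, Day4 over Undiff, for members that averaged 5 normalized counts or more, in Direct RNA (blue) and cDNA (brown). Bars are 1 standard error and filled points passed the call. Only Fn1 lies below 0, at -0.55 and -0.91, and neither value was called.

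Among the matricellular proteins, Ecm1 had the largest DESeq2 fold change of the 10 on both platforms. Extracellular matrix protein 1 is a secreted glycoprotein that binds several matrix proteins. Ecm1 (ENSMUSG00000028108.15) lies at chr3:95734147-95739569 in GRCm38 and has a longest transcript of 1900 bases in 11 exons. Its reads were 0 and 2 in the Direct RNA Undiff libraries and 427 and 1202 at Day4. In cDNA they were 1 and 6, then 2466 and 3145. The groups were far apart, and the mean level at Day4 was nearly the same on both platforms, at 1568 ± 87.2 CPM (SD, n = 2) in Direct RNA and 1692 ± 252 CPM (SD, n = 2) in cDNA. The ratio of pooled levels, Day4 over Undiff, was 1002 in Direct RNA, with a 95% counting interval of 277 to 8280. This value rests on only 2 Undiff reads. In cDNA the ratio was 717, with an interval of 348 to 1784. DESeq2 gave 8.93 on the log2 scale in Direct RNA (SE 0.754, adjusted p = 2.46e-29) against 8.87 for cDNA (SE 0.617, adjusted p = 4.57e-43). Both calls remained when any library was left out. An annotated microRNA gene in the same span, Mir7014, had 0 reads in every library.

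Sparc encodes osteonectin, a collagen-binding matricellular glycoprotein, and was already abundant before differentiation. Sparc (ENSMUSG00000018593.13) lies at chr11:55394500-55423183 and has a longest transcript of 2300 bases in 10 exons. Its level was 436 and 256 CPM in Direct RNA Undiff and 1048 and 700 CPM at Day4. In cDNA it was 99.1 and 123 CPM, then 615 and 531 CPM. Both Day4 libraries lay above both Undiff libraries on each platform, with a wider spread between replicates in Direct RNA. The pooled ratio was 2.60 (counting interval 2.30 to 2.95) in Direct RNA and 4.88 (4.35 to 5.48) in cDNA. DESeq2 called both, at 1.23 on the log2 scale in Direct RNA (SE 0.332, adjusted p = 0.00363). For cDNA the fitted value was 2.02 (SE 0.393, adjusted p = 1.20e-05). The Direct RNA call was lost without Undiff replicate 2 (0.88, DESeq2 adjusted p = 0.59) or without Day4 replicate 1 (0.99, DESeq2 adjusted p = 0.168). Each of these fits has 1 library in a group, whose spread is taken from the other.

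Postn encodes periostin, a matricellular protein of fibroblasts, periosteum and heart valves that binds integrins and collagen. Postn (ENSMUSG00000027750.16) lies at chr3:54361109-54391037 with a longest coding transcript of 3205 bases in 22 exons. No Undiff library on either platform had a read of it. At Day4 there were 29 and 38 reads in Direct RNA, 102 and 51.5 CPM, and 8 and 16 reads in cDNA, 6.07 and 7.70 CPM. Against the floor of 3 reads over the Undiff group, the level was at least 27.5-fold higher in Direct RNA and at least 7.16-fold higher in cDNA. DESeq2 called it in Direct RNA, fitted at 5.95 on the log2 scale (SE 1.16, adjusted p = 1.25e-05). With replicate number as a block, a pairing that no label gives, Postn was at 1.64 and was not called (DESeq2 adjusted p = 0.838). In cDNA its mean count of 4.59 was under the minimum for a call, with a DESeq2 adjusted p of 0.0704.

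Thrombospondin 1 (Thbs1) regulates angiogenesis and can activate latent TGF-beta. Thbs1 (ENSMUSG00000040152.8) lies at chr2:118111876-118127133 with a transcript of 5848 bases in 22 exons. It had 3 and 8 reads in Direct RNA Undiff, 8.61 and 8.82 CPM, and 24 and 10 at Day4, 84.7 and 13.6 CPM. The cDNA libraries had 1 and 2 reads in Undiff and 5 and 7 at Day4. The Direct RNA Day4 replicates differed more from each other than replicate 2 differed from Undiff. DESeq2 gave 2.05 on the log2 scale in Direct RNA (SE 0.910, adjusted p = 0.144), which was not called, while edgeR called it with 2.09 (adjusted p = 0.00376). Without Day4 replicate 1 the DESeq2 value was 0.41 (adjusted p = 0.95). Its cDNA ratio of 3.58 had a counting interval of 0.966 to 19.8, and the mean was under 5. An exon of Gm29233, whose reads were not analysed here, overlaps the gene on the opposite strand.

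**Figure D3:**
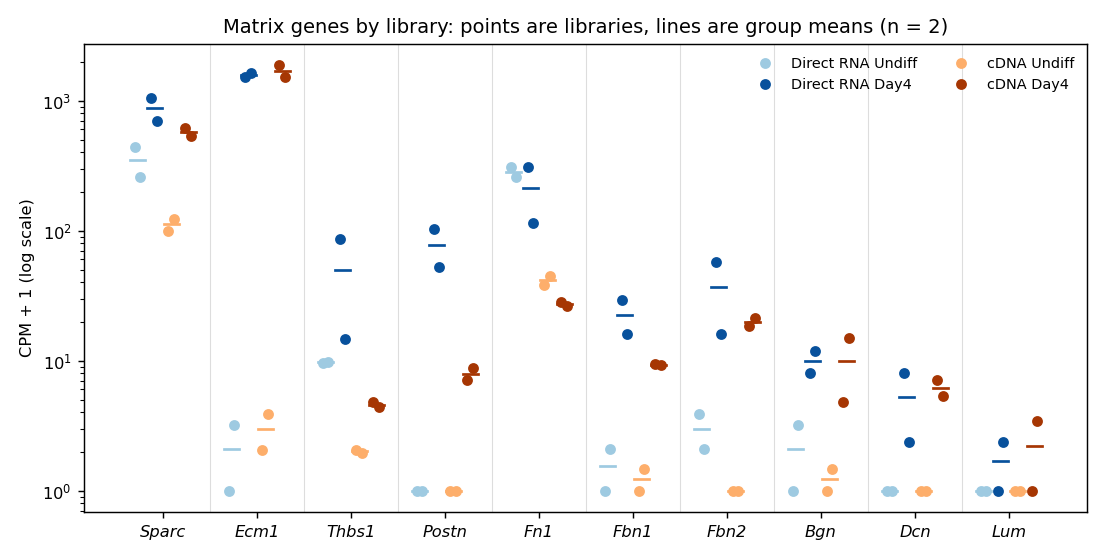
Level of each member in each library, as CPM + 1 on a log scale, for Direct RNA (blues) and cDNA (oranges) with Undiff in the lighter shade. Points are libraries and short lines are means of 2. Ecm1 lies at 0 to 2.87 CPM in Undiff and at 1506 to 1871 CPM at Day4, and Fn1 is the only member whose mean is lower at Day4.

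Fibronectin is the fibre-forming adhesion protein that cells bind through integrins, and it was abundant in both states. Fn1 (ENSMUSG00000026193.15) lies at chr1:71585520-71653200 with a longest transcript of 8315 bases in 46 exons. It was at 307 and 256 CPM in Direct RNA Undiff and at 307 and 114 CPM at Day4. Replicate 1 of Day4 thus lay at the level of replicate 1 of Undiff, and replicate 2 lay below both Undiff libraries. In cDNA the level was 36.9 and 44.1 CPM in Undiff and 27.3 and 25.5 CPM at Day4, without overlap. DESeq2 gave -0.55 in Direct RNA (SE 0.432, adjusted p = 0.579) and, for cDNA, -0.91 (SE 0.552, adjusted p = 0.377). Neither was called, and edgeR called neither as well (adjusted p = 0.21 and 0.173). The pooled ratios were 0.621 and 0.627, with counting intervals of 0.513 to 0.748 and 0.473 to 0.828 that hold no spread between replicates. Leaving out Direct RNA Day4 replicate 2 turned the sign in Direct RNA, to a log2 change of 0.016. An exon of Apol7d overlaps the gene on the opposite strand, and this gene had at most 18 reads in a library.

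Fibrillins form the microfibrils that give elastic fibres their scaffold and hold latent TGF-beta, and fibrillin 2 is the form best known from embryonic tissue. Both genes had at most 1 read in any Undiff library. Fbn2 (ENSMUSG00000024598.9), at chr18:58008623-58210487 with a transcript of 11041 bases, had 1 and 1 reads in Direct RNA Undiff and 16 and 11 at Day4. In cDNA it had none in Undiff and 23 and 42 at Day4. The ratio was 16.6 in Direct RNA (counting interval 4.17 to 144) and at least 19.4 in cDNA. DESeq2 called it on both platforms, with 3.38 (SE 1.10, adjusted p = 0.0241) and a fitted 5.22 (SE 1.26, adjusted p = 0.000804). The Direct RNA call was lost with replicate number as a block (3.02, DESeq2 adjusted p = 0.155). It was also lost when any 1 of the 4 libraries was left out, with values between 1.67 and 3.60. In cDNA it was lost without Undiff replicate 2 (DESeq2 adjusted p = 0.0983) or Day4 replicate 2 (DESeq2 adjusted p = 0.0828). Exons on the opposite strand overlap Fbn2 (Gm26507) and Fbn1 (Gm9913), and the reads of these genes were not analysed here.

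Fbn1 (ENSMUSG00000027204.13), at chr2:125300594-125507993 with a transcript of 11971 bases, had 0 and 1 reads in Undiff on each platform. At Day4 it had 8 and 11 reads in Direct RNA and 11 and 17 in cDNA, above every Undiff library. The ratios were 23.4 (counting interval 3.72 to 971) and 25.1 (4.14 to 1024). DESeq2 did not call it, with 3.36 (SE 1.26, adjusted p = 0.0625) and 3.27 (SE 1.32, adjusted p = 0.0943). DESeq2 did call it in Direct RNA with the Cook cutoff and independent filtering (adjusted p = 0.046) and in cDNA when genes needed 10 reads in 2 libraries (adjusted p = 0.0356). With any library left out it was not called, at 2.09 to 3.02 in Direct RNA and 2.29 to 2.95 in cDNA. With edgeR it was called on both platforms (adjusted p = 0.00145 and 0.00163).

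The small leucine-rich proteoglycans had at most 34 reads in a group. Decorin, biglycan and lumican bind collagen fibrils and set their spacing. Bgn (ENSMUSG00000031375.17, chrX:73483602-73495933) had 0 and 2 reads in Direct RNA Undiff and 2 and 8 at Day4. In cDNA it had 0 and 1, then 5 and 29, so the Day4 replicates stood apart, with most of the reads in replicate 2. Its cDNA log2 fold change of 3.29 was not called by DESeq2 (SE 1.33, adjusted p = 0.0944) and was called by edgeR (4.25, adjusted p = 0.000661). Without cDNA Day4 replicate 2 the DESeq2 value was 1.54 (adjusted p = 0.968). Dcn (ENSMUSG00000019929.16, chr10:97479609-97518143) had no read in Undiff, 2 and 1 at Day4 in Direct RNA and 8 and 9 in cDNA. The cDNA level was at least 5.07-fold higher at Day4. The mean count of Dcn in cDNA, 3.55, was under the minimum for a call (DESeq2 adjusted p = 0.146, edgeR adjusted p = 0.00565). Lum (ENSMUSG00000036446.5, chr10:97565128-97572703) had no read in Undiff and was seen at Day4 in replicate 2 of each platform only, with 1 read in Direct RNA and 5 in cDNA. At 3 reads over a group the floors were 2.39 and 2.94 CPM in Direct RNA Undiff and Day4 and 0.988 and 0.884 CPM in cDNA, so Lum in Direct RNA was not detectable above them.

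To set the members against each other, levels were divided by the length of the longest transcript. A nanopore read can span a whole transcript, so counts need not grow with length and the division may set long transcripts too low. Sparc led in Undiff on both platforms, with 150 ± 55.5 CPM per kb in Direct RNA and 48.3 ± 7.37 in cDNA (SD, n = 2). Fn1 came second, with 33.8 ± 4.37 and 4.87 ± 0.608 CPM per kb (SD, n = 2). Undivided, Sparc and Fn1 were at 346 ± 128 and 281 ± 36.4 CPM in Direct RNA Undiff (SD, n = 2), which overlap. In cDNA Undiff they were at 111 ± 16.9 and 40.5 ± 5.06 CPM (SD, n = 2). No other member passed 1.49 CPM per kb in Undiff. At Day4 Ecm1 led with 825 ± 45.9 CPM per kb in Direct RNA and 891 ± 133 in cDNA, and Sparc followed with 380 ± 107 and 249 ± 25.7 (SD, n = 2). Fn1 and Postn came next in Direct RNA, at 25.3 ± 16.4 and 14.7 ± 6.88 CPM per kb (SD, n = 2), and these neighbours overlap within their spread. Over its longest coding transcript, which is shorter than the longest transcript of 5223 bases, Postn was at 24.0 CPM per kb. In cDNA Bgn was at 3.33 ± 2.70 and Fn1 at 3.18 ± 0.153 CPM per kb (SD, n = 2), which also overlap. This order rests on the division by length, since without it Fn1 followed Sparc in cDNA Day4 at 26.4 ± 1.27 CPM, then Fbn2 at 18.8 ± 1.96 CPM and then Bgn at 8.88 ± 7.19 CPM (SD, n = 2). Lum was lowest at Day4 on both platforms, at 0.277 and 0.491 CPM per kb.

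The question whether the change between states differs between the platforms was put to the interaction of platform and state over all 8 libraries. DESeq2 called none of the 10 members and 0.0116% of all 17267 genes. At an unadjusted p of 0.05 neither DESeq2 nor edgeR found a member, and with total reads on genes as factors DESeq2 found 1, Sparc (1.01, SE 0.514). Sparc had an interaction of 0.81 on the log2 scale (SE 0.532, cDNA change minus Direct RNA change), Ecm1 of -0.56 (SE 1.28) and Fn1 of -0.39 (SE 0.692). The standard errors of Fbn1 (2.47), Postn (2.37) and Fbn2 (2.22) exceeded 2, so a difference of that size between platforms would not have been seen for these genes.

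The platforms did differ in the level at which members were counted. Over both states, DESeq2 called Thbs1, Postn and Fn1 lower in cDNA, and none of the 10 higher. Of the 10 genes, 7 had a mean count of at least 5, and among all 10426 such genes 24.7% were called higher and 26.6% lower in cDNA. The log2 difference, cDNA minus Direct RNA, was -2.54 for Thbs1 (SE 0.684, adjusted p = 0.000911), -2.40 for Postn (SE 0.631, adjusted p = 0.000663) and -2.08 for Fn1 (SE 0.315, adjusted p = 5.91e-10), all from DESeq2. Without Direct RNA Day4 replicate 1, DESeq2 no longer called Postn (-1.66, adjusted p = 0.138) or Thbs1 (-1.58, adjusted p = 0.0999). Ecm1 was 0.77 higher in cDNA (SE 0.307, DESeq2 adjusted p = 0.0342), under the fold that a call needs. It was called higher without cDNA Day4 replicate 2 (1.00). Fbn1 (-0.58, SE 0.719), Fbn2 (-0.50, SE 0.681) and Sparc (-0.33, SE 0.268) were not called.

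The scale matters for this comparison. The DESeq2 size factors and the total reads on genes differ between the platforms, so that a log2 difference from CPM is shifted by -0.75 against one from size factors. On the CPM scale DESeq2 also called Sparc lower in cDNA (-1.08, adjusted p = 0.000506), and Ecm1 was at 0.11 (adjusted p = 0.859). Over all genes this scale gave 10.7% called higher and 41.5% lower in cDNA. Between states, the CPM scale lies 0.10 log2 units above the size factors for Direct RNA and 0.33 above for cDNA. On it the calls of Ecm1, Fbn2, Postn and Sparc in Direct RNA remained, and in cDNA Bgn (DESeq2 adjusted p = 0.0492) and Postn joined Ecm1, Fbn2 and Sparc. The shares over all genes were then 10.7% higher and 6.60% lower in Direct RNA and 12.2% higher and 6.34% lower in cDNA. The sign of Fn1 stayed below 0, at -0.44 and -0.60.

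Transcript length moved with the difference between platforms and with that between replicates. Among 9889 genes with a coding transcript in GENCODE vM21, the median log2 difference, cDNA minus Direct RNA, was 1.00 for transcripts of at most 2 kb, -0.34 for 2 to 5 kb and -0.69 for over 5 kb. The share called lower in cDNA was 12.7%, 30.2% and 37.0% in these classes. Fn1 and Thbs1 belong to the longest class, and Ecm1 to the shortest. Fbn1 and Fbn2 have the longest transcripts of the 10 and were not called between platforms. In Direct RNA Day4, the median log2 ratio of replicate 1 over replicate 2 was -0.35, 0.07 and 0.49 in the same classes. It was 0.06, -0.35 and -0.40 in cDNA Day4, -0.01, -0.34 and -0.22 in cDNA Undiff, and -0.01, 0.05 and 0.10 in Direct RNA Undiff. For Thbs1 the ratio in Direct RNA Day4 was 2.56, for Fbn2 1.85, for Postn 0.98, for Fbn1 0.88, for Sparc 0.58 and for Ecm1 -0.11, and Fn1 was at 307 and 114 CPM in these libraries. Fbn1 had 8 and 11 reads and Postn 29 and 38 in these libraries, too few to order them. In cDNA Day4 the ratio lay between -0.30 (Postn) and 0.31 (Ecm1) for these 7 members, with 0.13 for Thbs1. The part of length in the results of the members was not tested.

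**Figure D4:**
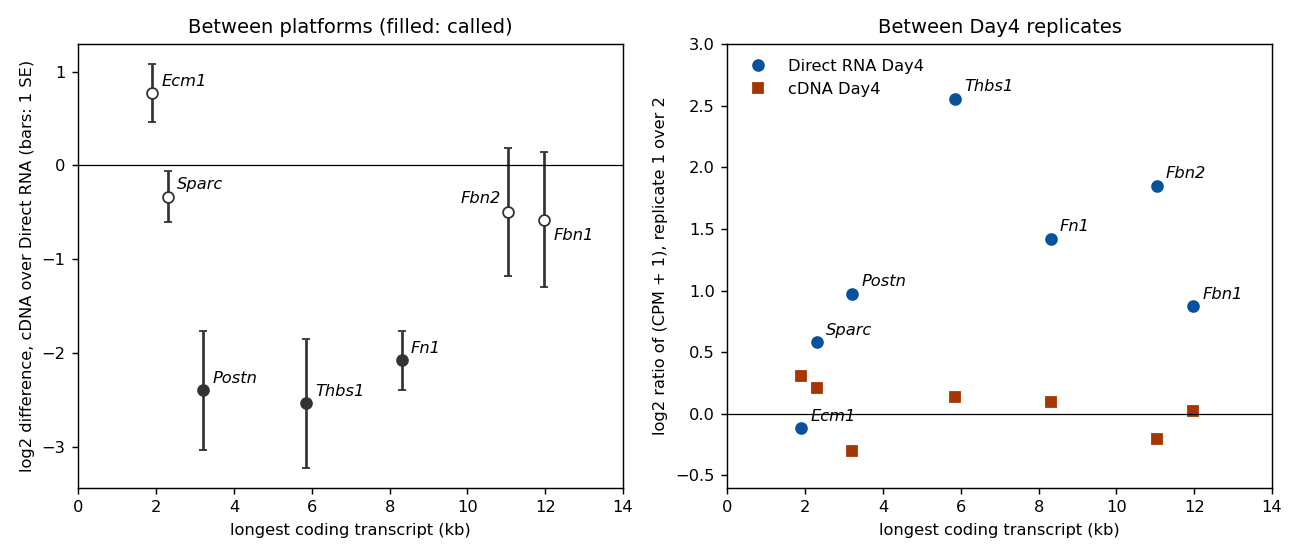
Longest coding transcript in kb against the DESeq2 log2 difference, cDNA minus Direct RNA, with bars of 1 standard error and filled points for calls (left), and against the log2 ratio of CPM + 1 of Day4 replicate 1 over replicate 2 in Direct RNA (circles) and cDNA (squares) (right). Shown are the 7 members with a mean count of at least 5. Thbs1 reaches 2.56 on the right in Direct RNA and 0.13 in cDNA.

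Genes that act with these proteins were also followed, in 5 lists. Among 34 other matricellular and interstitial matrix genes, 17 had the mean count in Direct RNA, of which 11 were called higher and 2 lower. In cDNA 9 of 18 were called higher and 2 lower. For this and the lists that follow, the shares over all genes were 9.54% higher and 7.67% lower in Direct RNA and 8.69% and 9.24% in cDNA. The median log2 fold change of the tested genes was 3.40 and 3.37, or 3.08 and 3.37 with genes that had no read in a group set at their bound, where the median over all genes tested was 0.03 and 0.00. Of the tested genes, 4 in Direct RNA and 1 in cDNA had no read in Undiff and passed the mean count only through Day4, so these medians describe the genes that passed and not the whole list. Wisp1, a secreted Wnt target of the CCN family, went from 0 to 116 reads on Direct RNA and, in cDNA, from 1 to 327, where reads of these lists are pooled over both replicates. Mfap2, which binds fibrillin in microfibrils, rose from 2.76 ± 3.90 to 236 ± 63.8 CPM (SD, n = 2) in Direct RNA. In cDNA it rose from 1.48 ± 0.609 to 403 ± 47.9 CPM (SD, n = 2). Spp1, the integrin ligand osteopontin, fell from 742 to 11 Direct RNA reads and from 2512 to 62 cDNA reads.

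The enzymes that fold and cross-link collagen numbered 17, with 7 of 12 called higher in Direct RNA and 3 of 12 in cDNA, and none lower, at medians of 2.50 and 1.95. With edgeR, which called 18.7% of all genes higher in Direct RNA and 17.0% in cDNA, these counts were 8 of 12 and 9 of 12, and the difference in number between the platforms was not tested. Serpinh1, the collagen chaperone Hsp47, rose from 49.9 ± 6.61 to 1682 ± 43.4 CPM and from 22.5 ± 3.44 to 978 ± 187 CPM (SD, n = 2). P4ha1 and P4ha2, catalytic subunits of prolyl 4-hydroxylase, had DESeq2 log2 fold changes of 3.69 and 3.50 in Direct RNA, and in cDNA of 3.53 and 2.91. Of 20 receptors for matrix proteins, 2 of 13 were called higher in Direct RNA (Itgb1 and Sdc2), and in cDNA 2 of 12 were called higher (Cd47 and Sdc2) and 1 lower (Sdc4). With edgeR 10 of the 13 were called higher and 1 lower (Sdc4) in Direct RNA, and 3 of the 12 higher and 1 lower in cDNA, so the count of receptors depends on the tool. The receptor medians were 1.29 and 0.84. Itgb1, Cd47 and Sdc4 were each called by DESeq2 on 1 platform and are named after their values were seen. Sdc2, a heparan sulphate proteoglycan of the cell surface, rose from 9 to 97 reads and from 16 to 173.

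Of 18 matrix proteases and inhibitors, 8 of 13 were called higher and 1 lower in Direct RNA, and 5 of 12 higher in cDNA, at medians of 3.46 and 2.1. With edgeR 9 of the 13 were called higher and 1 lower in Direct RNA, and 8 of the 12 higher and 2 lower (Htra1 and Timp1) in cDNA. Plat, one of the called genes, was tested in cDNA through Day4 alone. Mmp2, gelatinase A, rose from 9.05 ± 3.44 to 806 ± 412 CPM and from 1.25 ± 0.270 to 115 ± 17.3 CPM (SD, n = 2). Plat, tissue plasminogen activator, went from 2 to 230 reads and from 0 to 364, and Adamts1, a protease of proteoglycans, from 1 to 128 and from 2 to 112. The 9 TGF-beta ligands and latency proteins, some of which attach to fibrillin, had 6 of 8 called higher and 1 lower in Direct RNA and 4 of 5 higher and 1 lower in cDNA. Their medians were 4.57 and 5.17, or 3.89 and 5.17 with genes at 0 set at their bound. Of the tested genes, 3 in Direct RNA and 1 in cDNA had no read in Undiff and reached the mean count through Day4 alone. Tgfb3 had no read in Undiff and 203 reads at Day4 in Direct RNA and 410 in cDNA. Tgfb2 went from 1 to 153 reads and from 2 to 558, and Tgfbr3, a co-receptor, from 0 to 45 and from 6 to 466.

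**Figure D5:**
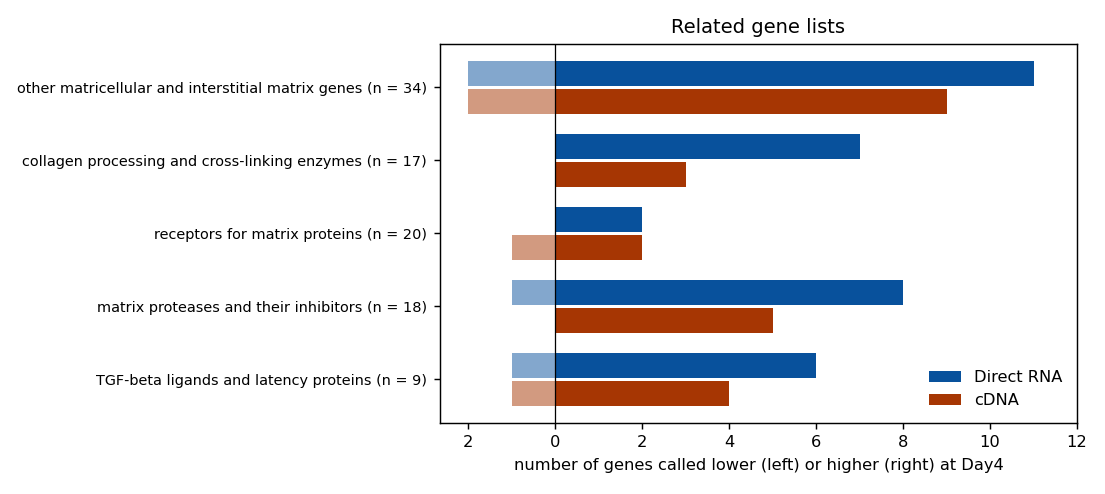
Number of genes called by DESeq2 at Day4 in 5 lists of genes that act with the members, with genes called higher to the right and lower to the left of 0, in Direct RNA (blue) and cDNA (brown). The list sizes stand in the row labels, and the other matricellular and interstitial matrix genes have 11 and 9 called higher.

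Markers of cell types that make these proteins moved between the states as well. Of 13 mesenchymal and fibroblast markers, 9 of the 9 at the mean count were called higher in Direct RNA and 9 of 10 in cDNA, beside the 9.54% and 8.69% over all genes. Of these, 5 in Direct RNA and 3 in cDNA had no read in Undiff and reached the mean count only through Day4. Thy1 had 9 and then 3 reads in Direct RNA and 15 and then 2 in cDNA, where edgeR called it lower. Their summed level went from 17.6 to 37.3 CPM in Undiff to 1932 to 3373 CPM at Day4 in Direct RNA. In cDNA it went from 8.14 to 16.9 CPM to 612 to 723 CPM. Of the 13, 7 had no read in Direct RNA Undiff and 4 had none in cDNA Undiff, against 1 and 0 at Day4. Col3a1 and Col1a2 had no read in Undiff and 1150 and 262 reads at Day4 in Direct RNA, and Tcf21, a transcription factor of mesenchyme, had 0 and then 82. Of 12 parietal endoderm markers, 6 of 9 were called higher in Direct RNA and 4 of 8 in cDNA, with sums of 251 to 324 CPM and 1352 to 1856 CPM in Direct RNA and 34.8 to 38.3 CPM and 291 to 368 CPM in cDNA. Gata6 had no read in Undiff and 366 reads at Day4 in Direct RNA and 217 in cDNA, and Gata4 had 3 and 238 in Direct RNA. Plat is in this list too. Of the tested genes, Gata6 on both platforms and Plat in cDNA had no Undiff read and were tested through Day4 alone. Lamc1 and Lama1, laminin chains, had 158 and 20 reads in Direct RNA Undiff and 90 and 9 at Day4, against 58 and 9 and then 59 and 8 in cDNA, and neither tool called them. Of the 12, 2 had no read in Direct RNA Undiff and 3 had none in cDNA Undiff, and all had reads at Day4.

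Of 8 visceral endoderm markers, 4 of 4 were called higher in Direct RNA and 2 of 5 in cDNA, and Ttr rose from 0 to 34 reads and from 0 to 204. Of those tested, 3 in Direct RNA and 2 in cDNA had no read in Undiff and passed the mean count only through Day4. Rbp4 rose from 5 to 77 reads and from 25 to 560. Amn had 15 Undiff reads and 1 at Day4 in Direct RNA, while the cDNA libraries had 22 and then 4, a difference that edgeR called lower and DESeq2 did not. In cDNA edgeR called 4 of the 5 higher, adding Afp and Apoa1. Their sum was 17.2 to 17.6 CPM in Direct RNA Undiff and 199 to 356 CPM at Day4, and 13.4 to 29.5 CPM and 326 to 329 CPM in cDNA. Endothelial markers had 3 of 4 called higher and 1 of 3, of which 2 and 1 had no Undiff read and were tested through Day4 alone, with sums of 70.5 to 120 CPM and 130 to 205 CPM in Direct RNA and 33.7 to 35.4 CPM and 77.4 to 93.4 CPM in cDNA. Emcn rose from 0 to 30 reads in Direct RNA. Pecam1 had 96 and then 41 reads in Direct RNA (ratio 0.525, counting interval 0.355 to 0.765), where edgeR called it lower, and 100 and then 81 in cDNA (0.725, 0.534 to 0.981), where neither tool did. Smooth muscle markers had 1 of 2 and 1 of 3 called higher, Acta2 in both. Tagln had 85 reads in Undiff and 23 at Day4 in Direct RNA and 51 and 11 in cDNA, and edgeR, though not DESeq2, called it lower on both platforms. Their sum was 37.3 to 122 CPM and 134 to 173 CPM in Direct RNA and 11.6 to 45.0 CPM and 99.2 to 118 CPM in cDNA. No neural marker was called higher by DESeq2 (edgeR called Nes), and Tubb3 was called lower on both platforms, with list sums of 159 to 181 CPM and 60.0 to 90.8 CPM in Direct RNA and 77.0 to 178 CPM and 46.2 to 50.1 CPM in cDNA. Among the pluripotency markers, Tdgf1 fell from 1040 to 5 reads, Fgf4 from 202 to 0 and Zfp42 from 1656 to 18 in Direct RNA. The part of these markers' cell types in the levels of the members was not tested.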

How the data were processed

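Polyadenylated RNA from Undiff and Day4 cells was sequenced on ONT Direct RNA (500 ng of input) and cDNA (50 ng), with 2 replicates per group grown and treated separately. The deposited values are read counts per gene, which the authors made with minimap2 alignments to mm10 and HTSeq, by strand in Direct RNA, with no normalization. The strand setting for cDNA is not given in the sources used here. The 5 counters of reads on no gene entered no test or total. Reads flagged as ambiguous were 1.21% to 1.44% of all reads in Direct RNA and 3.17% to 5.04% in cDNA.

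Counts were tested as deposited with DESeq2 1.42.0 in R 4.3.3 (shrunken fold changes, no Cook cutoff, no independent filtering), following the study's methods, over all genes. The interaction used no shrinkage and the adjusted p-value alone. Adjusted p-values are Benjamini-Hochberg values over all genes. The alternatives were edgeR 4.0.16 (quasi-likelihood, TMM), other size factors, filters, a replicate block and each library left out. CPM values are mean ± SD, n = 2. Pooled ratios carry exact counting intervals at 95%, and the floor is 3 reads over a group, used in ratios only for groups without reads. Both cover counting error only, since the PCR reads of cDNA libraries are not independent molecules. Replicate counts differed by more than sampling noise in every group (chi-square per degree of freedom 2.68 to 14.9). The scripts were tested on simulated counts.

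The members and lists were chosen with earlier results of these data known. All members are described, and from each list up to 3 genes called in 1 direction on both platforms, by mean log2 fold change. Other list genes are named because they moved against their list or between tools. They include Mfap5, Ctgf, Ltbp4, Thy1, Amn, Pecam1, Tagln, Lamc1, Lama1 and Nes, and all were chosen after their values were seen. Coordinates are from GENCODE vM21 on GRCm38, and promoters from RefSeq (GRCm38.p6). Protein sequences were not used here.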

Additional observations from a re-analysis of the deposited data

How the results depend on the processing

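The calls of Ecm1 on both platforms kept their side of the thresholds in every alternative run. Counts of genes called between states moved with the test: 3257 in Direct RNA and 3348 in cDNA with edgeR, 843 in Direct RNA with the replicate block, and 393 to 797 in Direct RNA and 709 to 1020 in cDNA with a library left out. Members called in Direct RNA were 2 with the replicate block (Ecm1 and Sparc, with Postn at 1.64, adjusted p = 0.838, and Fbn2 at 3.02, adjusted p = 0.155) and 2 to 3 with a library left out. In cDNA they were 5 with edgeR and 5 with total reads on genes as factors, the latter chosen after seeing the data. The interaction called 14 genes with edgeR, 1 with TMM factors, 1 with total reads, 1 with a crossed Day4 pairing, added after seeing the data, and 0 to 13 with a library left out. Between platforms, 1 to 4 members were called with a library left out, and the replicate block and its crossed form called the same 3 members as without it, Fn1, Postn and Thbs1. With a library left out, Fn1 in Direct RNA ranged from -1.29 to 0.016, Fbn2 between platforms from -1.04 to 0.16, and the interactions of Ecm1 from -2.17 to 0.33, of Fbn1 from -0.93 to 0.36, of Fn1 from -0.93 to 0.44 and of Thbs1 from -1.59 to 0.98. The cause of these shifts was not tested. Same-numbered libraries correlated by 0.214 between states in Direct RNA and 0.5 in cDNA, and by 0.124 in Undiff and -0.416 at Day4 between platforms, over 1395 genes, and with 2 replicates and no label that ties the numbers to a culture or day they were not taken as pairs. At Day4 the pluripotency sum was higher in replicate 2 on both platforms. Depth limits the folds of Postn, Fbn1, Fbn2, Bgn, Dcn and Lum, which had at most 2 reads in an Undiff group. It also limits the Direct RNA fold of Ecm1, with 2 Undiff reads.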
